A study of Rattus norvegicus with 9 samples.

Results

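Cxcl1, Cxcl2, Ccl2, Cxcl10 and Il6 are 5 inflammatory genes among the 32883 genes counted in rat renal artery endothelium in culture, the inner lining of the vessel that feeds the kidney. They were taken by their Ensembl gene identifiers, and their symbols come with that choice, since the count table lists identifiers only. Cxcl1 (ENSRNOG00000002802) was chosen by its measured level, for its rise in the treated group, so its values there are given as a description with no test. The other genes, Cxcl2 (ENSRNOG00000002792), Ccl2 (ENSRNOG00000007159), Cxcl10 (ENSRNOG00000022256) and Il6 (ENSRNOG00000010278), were set beside it.

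The study sequenced total RNA in 9 libraries, 3 in each of 3 groups. The labels call the groups Normal, Model and Calycosin and Tanshinone IIA treatment, the last called the treated group here. Both are plant compounds, calycosin of the isoflavone class and tanshinone IIA of the diterpene quinones. The series title ties the design to angiotensin II, a peptide hormone that raises blood pressure, which is read here as the Model condition. The labels do not state whether the treated cells also received it, nor any dose, time, vehicle or genotype. All groups share 1 cell label and 1 culture protocol, a serum-supplemented medium with cells passaged by trypsin. No label says that replicates are separate cultures, and the p-values may therefore reflect technical spread alone.

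Library totals ran from 7.98 to 18.3 in units of 1e6 counts. The deepest library was treated library 1 and the shallowest were treated libraries 2 and 3, at 7.98 and 8.15. The endothelial identity of the cells was not checked here, because no symbols could be matched to the identifiers. In bulk RNA, a change in how many cells express a gene and a change in the RNA made per cell cannot be told apart.

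Chemokines are small secreted proteins that draw leukocytes out of the blood, and endothelial cells both make them and display them on the vessel wall. Cxcl1 and Cxcl2 act on the receptor Cxcr2 of neutrophils, Ccl2 acts on Ccr2 of monocytes, and Cxcl10 acts on Cxcr3 of activated T cells. Il6 encodes interleukin-6, a cytokine of the acute-phase response that signals through gp130. The transcription factor NF-kB is a well-known activator of all of them, and interferon signalling adds to that of Cxcl10.

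Promoter sequences from RefSeq (GRCr8, a newer build than the one the files use) were found for 4 of the 5 genes, all but Ccl2. They are shown because these genes are textbook NF-kB targets and yet lay far apart in level in these cells. Each run reads 5′ to 3′ and ends at the base before the RefSeq gene start. The run of Cxcl10 holds 250 bases and the other runs 170 bases each. Matches were searched in the whole window of 300 bases of each gene, which is longer than the runs shown. Capitals mark matches to the NF-kB consensus, the interferon-stimulated response element (ISRE, core letters GAAANNGAA), the cyclic AMP response element (CRE, TGACGTCA) and the AP-1 site (TGANTCA), searched on both strands. Cxcl1 is from chr14:17479322-17479491, minus strand, Cxcl2 from chr14:17467256-17467425, minus strand, Cxcl10 from chr14:15988816-15989065, plus strand, and Il6 from chr4:5894576-5894745, minus strand.
Cxcl1: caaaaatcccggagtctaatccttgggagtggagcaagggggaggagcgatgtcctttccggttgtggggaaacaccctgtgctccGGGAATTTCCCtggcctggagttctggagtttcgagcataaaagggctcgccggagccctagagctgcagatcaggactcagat
Cxcl2: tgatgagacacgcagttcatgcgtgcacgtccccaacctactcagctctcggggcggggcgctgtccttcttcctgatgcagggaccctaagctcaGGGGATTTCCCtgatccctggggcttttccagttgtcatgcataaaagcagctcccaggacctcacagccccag
Cxcl10: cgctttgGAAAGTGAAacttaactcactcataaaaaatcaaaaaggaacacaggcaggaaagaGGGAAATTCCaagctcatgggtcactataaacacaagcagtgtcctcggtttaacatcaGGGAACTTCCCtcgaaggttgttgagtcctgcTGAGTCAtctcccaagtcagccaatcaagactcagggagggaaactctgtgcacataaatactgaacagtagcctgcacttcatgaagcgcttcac
Il6: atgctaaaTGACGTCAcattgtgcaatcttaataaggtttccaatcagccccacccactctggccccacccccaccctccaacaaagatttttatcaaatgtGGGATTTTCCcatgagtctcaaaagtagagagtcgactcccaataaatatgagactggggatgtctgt

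All 4 promoters held an NF-kB match, which 7.51% of 33469 promoter windows of 300 bases also held. In Cxcl1 it began 84 bases before the gene start, in Cxcl2 74 bases before and in Il6 68 bases before. Cxcl10 held matches that began 187 and 128 bases before the start, the latter, like those of Cxcl1 and Cxcl2, made of overlapping matches shifted by a single base. Cxcl10 alone of the 4 held an ISRE match, which began 243 bases before the start and is found in 9.71% of the windows, and an AP-1 match, found in 7.33% of them. Il6 alone of the 4 held a CRE match, 162 bases before the start, found in 1.83% of the windows. A match is a description of the letters and not evidence that a factor binds there.

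Per unit of gene length, Cxcl1 was by far the most abundant of the 5 genes in every library. On the scale of deposited FPKM, which scales fragments to gene length and library depth, the Normal libraries had 44.0 ± 1.95, the Model libraries 50.2 ± 3.27 and the treated libraries 81.6 ± 9.46 of Cxcl1 (SD, n = 3). Ranked by FPKM among all 32883 genes, it lay between places 1553 and 2101 in the Normal and Model libraries and between places 884 and 1136 in the treated libraries. Ccl2 came next, with FPKM of 6.12 ± 0.971, 6.01 ± 0.812 and 8.61 ± 0.508 in Normal, Model and treated libraries. Cxcl10 followed at 3.47 ± 0.756, 3.91 ± 0.503 and 5.59 ± 0.603 FPKM. The lowest Ccl2 library lay above the highest Cxcl10 library in each group, so that these neighbours in the order did not overlap within a group.

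Cxcl2, the closest relative of Cxcl1 among the 5, was nearly silent. Its FPKM was 0.432 ± 0.167 for Normal, 0.282 ± 0.244 for Model and 0.538 ± 0.129 for treated libraries (SD, n = 3), so that its level was 0% to 1.37% of that of Cxcl1 in the same library. Il6 had 7 counts over all 9 libraries, whose totals sum to 120.1 in units of 1e6 counts. Cxcl2 lay above Il6 in Normal and treated libraries, and the pair overlapped in Model, where Cxcl2 had a library with 0 counts. Cxcl1 and Cxcl2 are paralogs, and how the authors' counting treated reads that fit both is not given in the sources used here, which leaves the split between them uncertain.

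**Figure D1:**
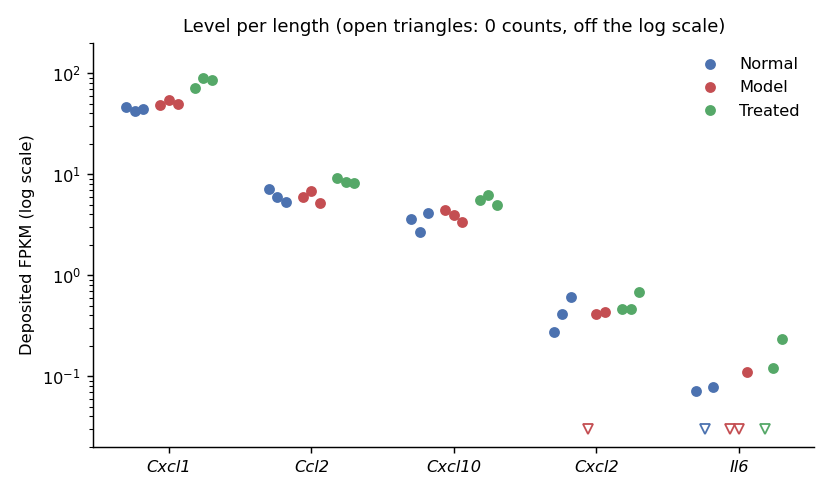
Deposited FPKM of each gene (y axis, log scale) in each library, coloured by group, with libraries of 0 counts drawn as open triangles off the scale. Cxcl1 sits near 44.0 to 81.6 FPKM by group mean, Ccl2 and Cxcl10 at 5.82% to 15.6% of it, and Cxcl2 and Il6 lower again, at 0.687 FPKM or less.

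Within a gene, levels were compared as CPM, counts per 1e6 counts of the library after TMM scaling. Cxcl1 was at 42.7, 39.0 and 41.1 CPM in Normal 1 to 3, 44.4, 50.2 and 45.7 CPM in Model 1 to 3 and 65.6, 81.2 and 78.7 CPM in treated 1 to 3. The 3 groups did not overlap, with every Model library above every Normal one and every treated library above every Model one. Such separation was frequent among the genes tested. Model lay above Normal in 5.49% of them, treated above Model in 7.90%, and treated above both other groups in 4.87%. The share of genes with all 3 groups apart in the order Normal, Model, treated was not counted. Cxcl1 was chosen for its rise in the treated group, so its place there is a description. Treated library 1 was the lowest of its group and also the deepest, at 18.3 in units of 1e6 counts. On its own it still lay above the highest Model library.

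The Cxcl1 level of the treated group was 1.60-fold that of Model, a log2 fold change of 0.68 ± 0.09 (SE, edgeR), and 1.83-fold that of Normal, 0.87 ± 0.09. From the top of the 12943 genes tested, its log2 fold change took place 146 against Model and place 73 against Normal. With every library thinned to the total of the smallest, the log2 fold changes were 0.64 and 0.82, and without treated libraries 2 and 3 they were 0.50 and 0.69. These values chose the gene and carry no test.

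Model against Normal is not the contrast on which Cxcl1 was chosen, although its libraries are the baseline of that rise. There the log2 fold change was 0.19 ± 0.09 (SE, n = 3 per group), a 1.14-fold difference with a 95% interval from 1.00-fold to 1.31-fold. It did not pass the threshold (edgeR quasi-likelihood test with Benjamini-Hochberg adjustment, adjusted p = 0.999). All 3 Model libraries lay above all 3 Normal libraries, which held in this direction for 5.49% of the genes tested.

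Over all genes, 0 of 12943 were called between Model and Normal by edgeR (0%), with 550 genes at an unadjusted p below 0.05, and DESeq2 also called 0. Called means a Benjamini-Hochberg adjusted p below 0.05 over all genes tested. Between the treated group and Model 119 genes were called (0.919%), and between the treated group and Normal 346 (2.67%). Of the 5 genes, 3 passed the filter on low counts and entered these tests, namely Cxcl1, Ccl2 and Cxcl10. Cxcl2 and Il6 were too low.

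**Figure D2:**
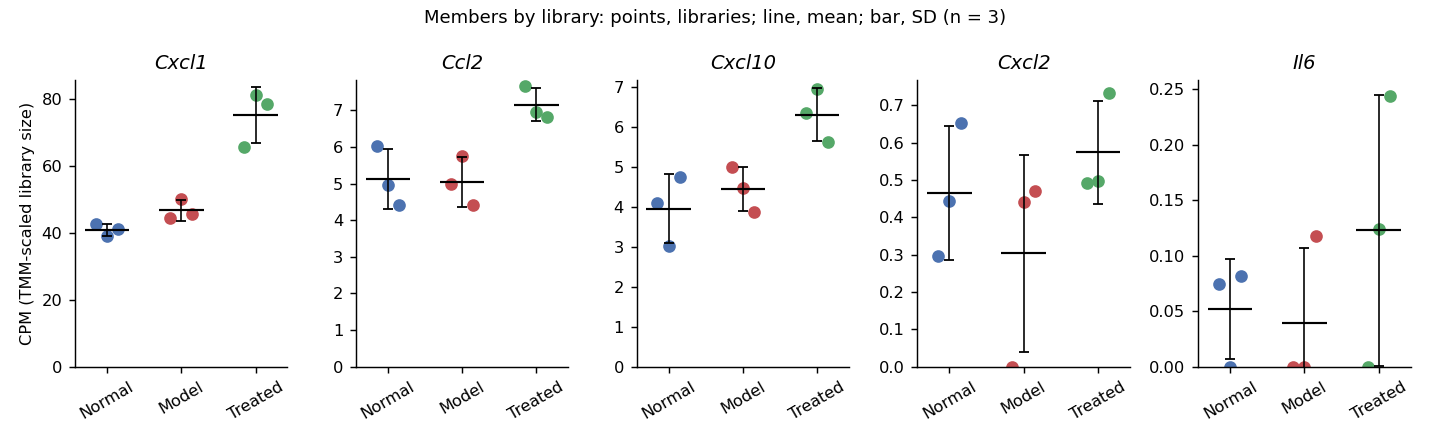
CPM of each gene (y axes, separate scales starting at 0) by group. Points are libraries, lines means and bars SD (n = 3). For Cxcl1, Ccl2 and Cxcl10 each treated library lies above every Normal and Model library, which held for 4.87% of the genes tested.

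Ccl2, the monocyte chemokine also known as MCP-1, was at 6.02, 4.95 and 4.41 CPM in Normal 1 to 3, 4.99, 5.74 and 4.40 CPM in Model 1 to 3 and 7.67, 6.96 and 6.83 CPM in treated 1 to 3. Normal and Model overlapped, and all 3 treated libraries lay above both. Treated library 1 was the highest of its group for Ccl2, whereas it was the lowest for Cxcl1.

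The Ccl2 level of the treated group was 1.43-fold that of Model (log2 fold change 0.52 ± 0.16, SE, n = 3 per group), with a 95% interval of 1.13-fold to 1.81-fold, and did not pass the threshold (edgeR adjusted p = 0.188). Against Normal it was 1.40-fold (0.49 ± 0.16, interval 1.10-fold to 1.78-fold), again short of the threshold (edgeR adjusted p = 0.126). The unadjusted p were 0.00573 and 0.00899 in the same edgeR fit. Model and Normal were apart by a log2 fold change of -0.03 ± 0.16 (edgeR adjusted p = 1.00), an interval from 0.771-fold to 1.25-fold.

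Cxcl10, a chemokine known for its induction by interferons, was at 4.09, 3.03 and 4.74 CPM in Normal 1 to 3, 4.99, 4.48 and 3.88 CPM in Model 1 to 3 and 6.35, 6.96 and 5.61 CPM in treated 1 to 3. Normal and Model again overlapped, and the lowest treated library lay above the highest library of both. The counts behind these values were 41 to 116 per library.

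Against Model, Cxcl10 in the treated group was 1.42-fold (log2 fold change 0.51 ± 0.18, SE, n = 3 per group; 95% interval 1.09-fold to 1.86-fold) and did not pass the threshold (edgeR adjusted p = 0.258). Against Normal it was 1.60-fold (0.68 ± 0.19; interval 1.22-fold to 2.11-fold), with an edgeR adjusted p of 0.0681, the smallest among the tests of these genes. This value crossed the threshold without Normal library 3, at a log2 fold change of 0.82 (edgeR adjusted p = 0.0330), and no other left-out library or setting tried moved it there. Model differed from Normal by 0.17 ± 0.19 on the log2 scale (edgeR adjusted p = 0.999), an interval of 0.853-fold to 1.48-fold.

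Non-overlap was frequent in the table as a whole. In 7.90% of the genes tested all treated libraries lay above all Model libraries, and in 11.9% all treated libraries lay above all Normal libraries. Both held at once for 4.87% of the genes tested, Ccl2 and Cxcl10 among them. In the order of log2 fold changes from the top of 12943 genes, Ccl2 lay at place 323 against Model and 327 against Normal, and Cxcl10 at place 328 and place 140. The median log2 fold change of all genes tested was between -0.0024 and 0.0007 in the 3 comparisons.

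**Figure D3:**
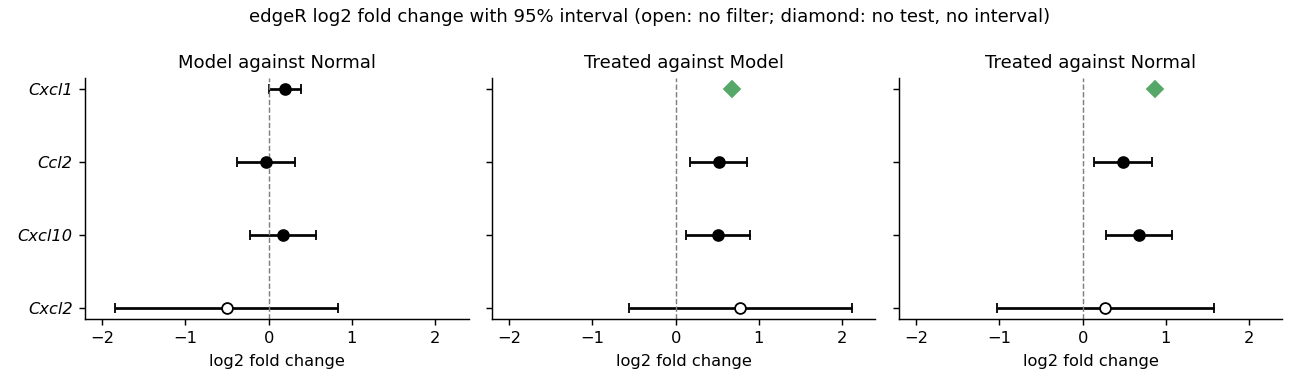
Log2 fold changes from edgeR (x axis) with 95% intervals for Cxcl1, Ccl2, Cxcl10 and, as open points from a fit with no count filter, Cxcl2. Cxcl1 in the treated comparisons is a diamond with no interval, since it was chosen there; the treated intervals of Ccl2 and Cxcl10 lie above 0 before adjustment over all genes, and those of Cxcl2 span 0.

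Cxcl2 gave few counts. The Normal libraries had 4, 6 and 8 counts, the Model libraries 0, 7 and 8 and the treated libraries 9, 4 and 6. Summed over each group this is 18, 15 and 19 counts, with exact Poisson 95% intervals of 10.7 to 28.4, 8.40 to 24.7 and 11.4 to 29.7, which cover counting error only. The CPM values of the treated libraries, 0.493, 0.497 and 0.732, lay above those of the Model libraries, 0, 0.442 and 0.470, and overlapped those of Normal, 0.297, 0.443 and 0.654. The order of treated over Model rests on these few counts and is not read as a difference. Cxcl2 did not pass the filter, so the shares given for the genes tested do not cover it.

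In an edgeR fit with no count filter over 20147 genes, Cxcl2 in the treated group differed from Model by a log2 fold change of 0.78 ± 0.64 (SE; edgeR adjusted p = 0.749) and from Normal by 0.28 ± 0.62 (edgeR adjusted p = 0.904). Model was apart from Normal by -0.50 ± 0.64 (edgeR adjusted p = 0.951). The treated intervals ran from 0.677-fold to 4.35-fold and from 0.489-fold to 2.99-fold. They hold both no difference and a fold as large as that of Cxcl1, so at this depth it could not be seen whether Cxcl2 differed between the groups.

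Il6 had 1, 0 and 1 counts in Normal 1 to 3, 0, 0 and 2 in Model 1 to 3 and 0, 1 and 2 in treated 1 to 3. Every library was below 3 counts, about the one-sided 95% Poisson upper limit for a count of 0. This floor corresponds to 0.164 to 0.373 CPM. It does not bound the level of Il6 in libraries with 1 or 2 counts. No fold is given for Il6, and a difference between the groups was not detectable at this depth.

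Ccl2 and Cxcl10 were then set against Cxcl1 within each library, a ratio that does not depend on library size. Ccl2 FPKM was 15.6%, 14.1% and 11.9% of Cxcl1 FPKM in Normal 1 to 3, 12.5%, 12.7% and 10.7% in Model 1 to 3 and 13.0%, 9.50% and 9.63% in treated 1 to 3. The groups overlapped, with treated libraries 2 and 3 below all others and treated library 1 among the Normal and Model values. The mean log2 ratio of Ccl2 to Cxcl1 was lower in the treated group by 0.17 than in Model and by 0.38 than in Normal, against an SD between replicates of 0.20 and 0.23.

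Cxcl10 FPKM was 7.82%, 6.35% and 9.42% of Cxcl1 FPKM in Normal 1 to 3, 9.18%, 7.29% and 6.93% in Model 1 to 3 and 7.91%, 6.99% and 5.82% in treated 1 to 3. All 3 groups overlapped. The mean log2 ratio was lower in the treated group by 0.18 than in both Model and Normal, with an SD between replicates of 0.22 and 0.26. For Cxcl10 the shift relative to Cxcl1 was thus smaller than the spread between libraries in both comparisons, and for Ccl2 it was smaller than the spread against Model only. Cxcl1 was picked for its treated level, so these ratios carry no test.

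**Figure D4:**
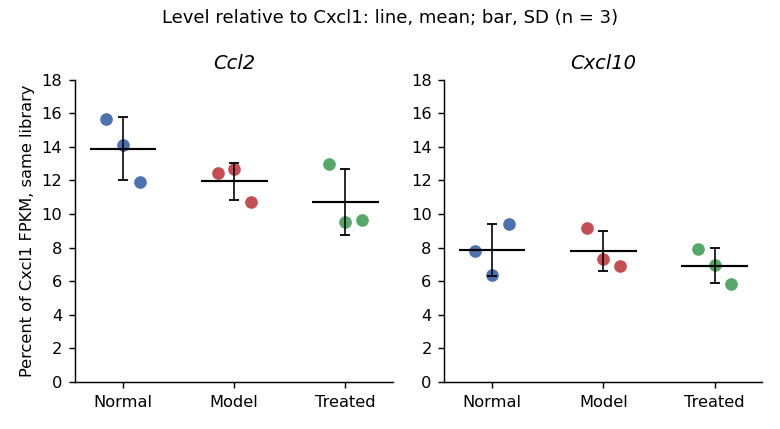
FPKM of Ccl2 and Cxcl10 as a percent of Cxcl1 FPKM in the same library (y axes from 0) by group. Points are libraries, lines means and bars SD (n = 3). Ccl2 runs from 9.50% to 15.6% and Cxcl10 from 5.82% to 9.42%, and the groups overlap.

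Likeness of pattern was measured as Pearson's r of log2 CPM over the 9 libraries, given as a description, since the libraries share their groups and depths. Among 12942 other genes, r with Cxcl1 had a median of 0.01 and a 95th percentile of 0.77. Cxcl10 had r = 0.83 with Cxcl1, place 339 from the top, and Ccl2 had r = 0.81, place 422. Between Ccl2 and Cxcl10 r was 0.70.

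The gene most like Cxcl1 was ENSRNOG00000026607 (r = 0.99), with 15.1 ± 1.02 CPM for Normal, 16.4 ± 1.35 for Model and 29.4 ± 1.87 for treated libraries (SD, n = 3). Next was ENSRNOG00000028330 (r = 0.98), at 12.2 ± 0.0486, 13.5 ± 0.0331 and 20.0 ± 0.752 CPM. Both had their lowest mean in Normal and their highest in the treated group, as Cxcl1 did. They were picked for their likeness to Cxcl1 over these same libraries, so this shared order follows from the choice. The highest r of any gene was 0.95 with Ccl2 and 0.98 with Cxcl10.

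Under thinning to the smallest total, a single random draw, Ccl2 was at 0.45 against Model and 0.80 against Normal on the log2 scale (edgeR adjusted p = 0.445 and 0.0797), and Cxcl10 at 0.83 and 0.70 (edgeR adjusted p = 0.183 and 0.161). Cxcl10 then lay above Cxcl1, at 0.64, in the comparison with Model. Without treated libraries 2 and 3, Ccl2 was at 0.62 and 0.58 and Cxcl10 at 0.53 and 0.70, so that against Model both lay above Cxcl1, at 0.50. The order of the 3 genes by fold change was therefore not stable.

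No alternative turned the direction of Cxcl1, Ccl2 or Cxcl10 in a treated comparison. Leaving out each library in turn gave log2 fold changes against Model of 0.62 to 0.77 for Cxcl1, 0.42 to 0.62 for Ccl2 and 0.42 to 0.59 for Cxcl10. Against Normal they were 0.81 to 0.97, 0.39 to 0.62 and 0.52 to 0.82. The edgeR adjusted p of Ccl2 over these fits was 0.0790 to 0.532 against Model and 0.102 to 0.318 against Normal.

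**Figure D5:**
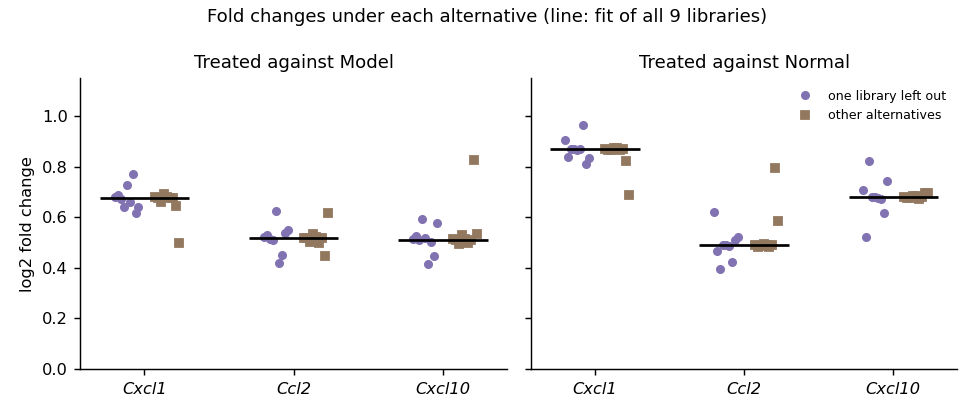
Log2 fold changes (y axis) of Cxcl1, Ccl2 and Cxcl10 for both treated comparisons. Circles leave out a library each, squares are the other alternatives and lines the fit of all 9 libraries; every point lies above 0.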

How the data were processed

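Total RNA of the cultured cells was made into strand-specific libraries, per the labels' protocols. The submitters' processing notes list CASAVA 1.8 and the rat build mRatBN7.2, while aligner, counter and annotation were not given in the sources used here. The authors deposited whole-number read counts and FPKM values per Ensembl gene, per the file headers. Of 32883 genes, 12736 were at 0 in all libraries.

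Counts were tested in R 4.3.3 with the quasi-likelihood test of edgeR 4.0.16, after TMM scaling, the filterByExpr filter at its minimum count of 10 and robust dispersion estimates, with all 9 libraries in 1 fit and the group as the only term. Benjamini-Hochberg adjustment ran over the 12943 genes tested, with a threshold of 0.05. The standard error is the log2 fold change divided by the square root of F, and the interval uses the fit's degrees of freedom. FPKM served to compare levels between genes, also as ranks and as ratios to Cxcl1 within each library, which were then set side by side by group. No test was run on FPKM. The fit was first tested on simulated data.

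Replicate pairs differed by more than counting noise (chi-square of 4.77 to 15.1 per degree of freedom), so none was treated as a library deposited in duplicate; this does not show that they are separate cultures. The genes, lists and rules were chosen with earlier results of these data known. All 5 genes are named. The rule for genes of highest r took 3 for Cxcl1 and 1 each for Ccl2 and Cxcl10; as identifiers without symbols were limited to 2, only those most like Cxcl1 are printed. For the same reason 138 symbols in 11 pathway and marker lists could not be scored. Alternatives were DESeq2 1.42.0, upper-quartile factors, other filters, 2 groups only, a replicate block, a fit that was not robust and omission of single libraries. Thinning to equal depth and leaving out treated libraries 2 and 3 were chosen after seeing the data, as was reading Cxcl2 from the fit with no filter.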

Additional observations from a re-analysis of the deposited data

How the results depend on the processing

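The log2 fold changes of Cxcl1, Ccl2 and Cxcl10 stayed above 0 in both treated comparisons under every alternative, and Ccl2 stayed short of the threshold in all of them. Their sizes moved: in the thinning to equal depth, which is a single random draw, Cxcl10 against Model went from 0.51 to 0.83, above Cxcl1 at 0.64, and Ccl2 against Normal from 0.49 to 0.80. Without treated libraries 2 and 3, which leaves a lone treated library assumed to vary like the other groups, Cxcl1 moved to 0.50 against Model and 0.69 against Normal, and 2 and 8 genes were called in place of 119 and 346; Ccl2 (0.62) and Cxcl10 (0.53) then lay above Cxcl1 against Model. Cxcl10 against Normal passed only without Normal library 3 (log2 fold change 0.82, range over left-out libraries 0.52 to 0.82; edgeR adjusted p 0.0330 to 0.255). Between Model and Normal, where no gene was called, the sign of small differences turned: Ccl2 was 0.10 without Normal library 1, 0.07 without Model library 3 and 0.35 in a thinning to equal depth, over a leave-one-out range of -0.13 to 0.10, and Cxcl10 was -0.0033 without Normal library 2 and -0.13 when thinned, over a range of -0.0033 to 0.31. The cause was not tested.

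Counts of called genes moved more. With 1 library left out they were 0 to 16 for Model against Normal, 8 to 215 for the treated group against Model and 94 to 671 against Normal. The lowest of these came without treated library 2 in both treated comparisons. DESeq2 called 203 genes for the treated group against Model and 517 against Normal. Same-numbered libraries had deviations from their group means that correlated above 0.1 in 2 of 9 pairs. These correlations ran from -0.0102 to 0.275, against -0.205 to 0.115 for libraries of different number. A library's best match in another group carried its own number in 7 of 18 cases. With so few libraries per group, these values cannot decide whether the numbers pair the samples. A replicate block gave 1 gene for Model against Normal, 47 for the treated group against Model and 302 against Normal, and changed no call of Ccl2 or Cxcl10. At these depths Il6 and Cxcl2 could not be compared between groups.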
